A study of Homo sapiens with 8 samples.

Results

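Tyrosine is read by tRNAs with the anticodon GTA (tRNA-Tyr-GTA) and, in the annotation used for these data, by a single gene with the anticodon ATA (tRNA-Tyr-ATA). All crosslink counts on the sense strand of references named for tRNA-Tyr were taken, by isoacceptor, by reference and by position. They lay on 9 of 252 tRNA references, which name 13 of 413 tRNA genes and form 2 of 50 tRNA families. A library held between 17 and 184 tyrosine sites, of 714 to 9176 sense sites in all.

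The series used iCLIP, in which protein is crosslinked to RNA in cells, purified, and the crosslinked base is read from where reverse transcription stops. The cells were Flp-In T-Rex 293, a human embryonic kidney line with a single integration site, made to express 3xFLAG-DUS2L or 3xFLAG-DUS1L from a tetracycline-inducible promoter, beside the enzymes the cells already have. The 4 groups were DUS2L cells with 5-ClUrd, DUS2L cells without it, DUS1L cells with 5-ClUrd and DUS1L cells without it. Every group had tetracycline at 1 µg/mL for 12 h before a change of medium and again for 12 h after it, and treated groups had 100 µM 5-ClUrd for those last 12 h. Each group had 2 libraries, described as biological replicates, and no untagged cells were among the groups used here.

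Dihydrouridine synthases reduce uridine to dihydrouridine, the modification that gives the D arm of tRNA its name. Human DUS1L is known to act at positions 16 and 17 and DUS2L at position 20 of standard tRNA numbering. The analogue 5-chlorouridine (5-ClUrd) is built into RNA, and a synthase that acts on it can stay covalently bound to that base. Tyrosine tRNA with the anticodon GTA carries a queuosine derivative at the first anticodon base, and human tyrosine tRNA genes hold an intron next to the anticodon that is spliced out. The comparisons ask how much, and where on tyrosine tRNA, each enzyme was crosslinked with the analogue, relative to its absence and to the other enzyme.

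Of the 13 genes, 12 matched a RefSeq symbol on GRCh38.p14, with gene lengths of 89 to 94 bases. TRY-ATA1-1, the gene of tRNA-Tyr-ATA-1-1, lies on chromosome 2 at 218245826 to 218245918. TRY-GTA4-1, whose reference held most counts, lies on chromosome 14 at 20657464 to 20657557, close to TRY-GTA7-1 at 20659958 to 20660051. TRY-GTA8-1 lies on chromosome 6 at 26575570 to 26575659. No tyrosine count lay beyond position 62 of a reference. Positions are counted from 1 at the 5′ end of each reference and were not aligned to standard numbering. The reference sequences were not at hand, so it is not known whether they hold the intron. If they do, the arm names used below do not hold past the anticodon. The names of the deposited values do not say whether a site is the crosslinked base or the one beside it.

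Libraries held 370878 and 363024 sense counts in treated DUS2L cells, 130011 and 172078 in untreated DUS2L cells, 824657 and 542521 in treated DUS1L cells, and 144322 and 7369 in untreated DUS1L cells. The second untreated DUS1L library is thus thin: 3 counts are 0.0407% of it, against at most 0.00231% in the other libraries. Shares below are percent of a library's sense counts, and intervals on them are exact binomial 95% intervals that cover counting error only. A sum over sites does not tell fewer bound molecules from fewer crosslinks per molecule or from less tRNA.

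tRNA-Tyr-GTA was recovered with both enzymes and was the more abundant isoacceptor in every library. With DUS2L it had 1917 and 1604 counts with 5-ClUrd (0.517% and 0.442%), against 169 and 179 counts without it (0.130% and 0.104%). With DUS1L it had 23184 and 13751 counts with 5-ClUrd (2.81% and 2.53%), against 2556 and 73 counts without it (1.77% and 0.991%). Treated libraries lay above untreated ones for both enzymes, and every DUS1L library lay above every DUS2L library. By mean share the family ranked 39 of 55 families in treated DUS2L cells, 43 in untreated DUS2L cells, 17 in treated DUS1L cells and 16 in untreated DUS1L cells.

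**Figure D1:**
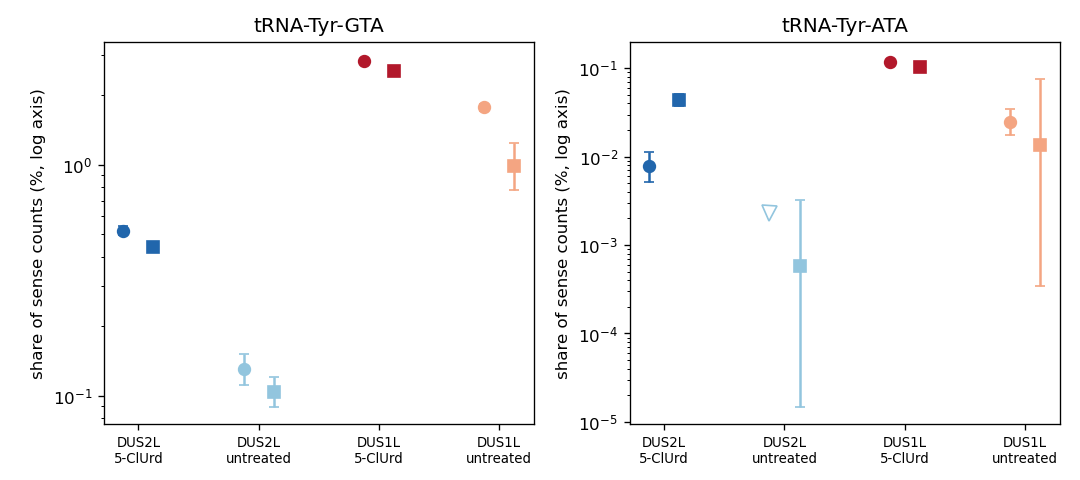
Share of each library's sense counts (%, log axis) on tRNA-Tyr-GTA (left) and tRNA-Tyr-ATA (right), with circles for the first and squares for the second library of a group, bars for 95% counting intervals, and an open triangle at the share of 3 counts where a library had 0. Libraries on tRNA-Tyr-GTA fall into 4 separate levels with treated DUS1L highest (2.81% and 2.53%), and on tRNA-Tyr-ATA the treated DUS2L libraries (0.00782% and 0.0441%) span the untreated DUS1L ones.

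In DUS2L cells tRNA-Tyr-GTA rose with the analogue. Its share averaged 0.479% ± 0.0531 with 5-ClUrd and 0.117% ± 0.0184 without it (SD, n = 2 each), a log2 change of 2.04 ± 0.23 (SE, adjusted p = 0.000313 by edgeR's quasi-likelihood F test over 55 families). In that comparison 52.7% of families rose and 23.6% fell, and the median family changed by 0.86. tRNA made up 97.4% and 95.6% of counts in the treated DUS2L libraries, against 80.6% and 86.4% in the untreated ones, the rest being rRNA. Against tRNA families alone the change was 1.82.

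In DUS1L cells the difference did not pass the test. tRNA-Tyr-GTA averaged 2.67% ± 0.196 with 5-ClUrd and 1.38% ± 0.552 without it (SD, n = 2 each), a log2 difference of 0.94 ± 0.54 (SE, adjusted p = 0.186, edgeR) that turned to -0.11 with TMM factors and -0.37 with DESeq2 size factors. The median family changed by 1.35 there, and 22.6% of families rose and 1.89% fell. The call rested on the untreated pair: without the first untreated library the difference was 1.43 (adjusted p = 7.24e-08), and without the second it was 0.59 (adjusted p = 0.00601).

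The 5-ClUrd effect on tRNA-Tyr-GTA in DUS2L cells minus that in DUS1L cells was 1.10 ± 0.53 on the log2 scale (SE, adjusted p = 0.140, edgeR fit of 8 libraries), which did not pass the threshold. It was 0.19 (adjusted p = 0.898) with TMM factors and 1.44 (adjusted p = 0.00847) without the second untreated DUS1L library. Of all families, 10.9% passed upward and 18.2% downward in this test of the difference.

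Between the enzymes tRNA-Tyr-GTA was lower with DUS2L than with DUS1L. The log2 difference was -2.48 ± 0.39 with 5-ClUrd (SE, adjusted p = 0.000915, edgeR), where 38.2% of families were higher and 27.3% lower. Without 5-ClUrd it was -3.58 ± 0.42 (SE, adjusted p = 0.000116), where 47.3% were higher and 41.8% lower. Site files were named differently by enzyme: a premapping step against non-coding RNA appears in the DUS2L names and not in the DUS1L names, so enzyme and the making of the files cannot be told apart.

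Single sites of tRNA-Tyr-GTA reached the top of the range of the files. The highest count at any site lay between 1061 and 1436 in 7 of the 8 libraries, whose sense totals ran from 130011 to 824657, and was 555 in the thin library, so a limit on counts per site may hold in these files. Such a limit would lower the shares of the fullest sites in the deepest libraries, and its part in the shares by position and arm given below was not tested beyond the alternatives with a limit of 500. In the first treated DUS1L library the sites at positions 26, 27 and 37 of tRNA-Tyr-GTA-4-1 held 1076, 1055 and 1073 counts, and the highest count at any site of that library was 1269. Sites above 500 counts held 50.2% and 41.9% of tyrosine counts in the treated DUS1L libraries. They held 28.7% and 0 in the treated DUS2L libraries, and 24.3% and 0 in the untreated DUS1L libraries. With such sites left out of all families, the tRNA-Tyr-GTA change with 5-ClUrd was 2.23 (adjusted p = 0.000162) in DUS2L and 0.81 (adjusted p = 0.297) in DUS1L, and the enzyme difference with 5-ClUrd was -3.25 (adjusted p = 0.000125, edgeR).

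tRNA-Tyr-ATA was a minor species, all of it on 1 reference. With DUS2L it had 29 and 160 counts with 5-ClUrd (0.00782% and 0.0441%), against 0 and 1 without it; the count of 0 allows a share of up to 0.00231%, which is 3 counts of that library. With DUS1L it had 967 and 563 counts with 5-ClUrd (0.117% and 0.104%), against 36 and 1 without it (0.0249% and 0.0136%). Treated libraries were higher with either enzyme, and by SD the treated DUS2L libraries differed most from each other (0.0256 percentage points).

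For DUS2L the summed 189 treated counts against 1 untreated count gave a ratio of 77.8 (95% counting interval 13.8 to 3089). The edgeR test passed (adjusted p = 0.0366), but not without the first untreated library (0.236) or the second (0.235). For DUS1L the log2 difference of 2.32 ± 0.75 (SE) did not pass (adjusted p = 0.0615, edgeR), and it did without the second untreated library (2.15, adjusted p = 0.0248). It was 1.25 (adjusted p = 0.318) with TMM factors and 0.97 (adjusted p = 0.493) with DESeq2 size factors. With 5-ClUrd tRNA-Tyr-ATA was lower with DUS2L than with DUS1L by a log2 difference of -2.09 ± 0.78 (SE, adjusted p = 0.0456, edgeR). That call was lost without the first treated DUS1L library (adjusted p = 0.157) or the second (0.135), and leaving out a treated DUS2L library moved the difference to -1.33 (the first) or -3.81 (the second). Without 5-ClUrd there was 1 DUS2L count against 37 DUS1L counts, a ratio of 0.0136 (counting interval 0.000335 to 0.0805) (adjusted p = 0.00458, and 0.207 without the first untreated DUS1L library). With both strands counted the fitted difference was -3.74, against -5.95 with the sense strand (edgeR). The 5-ClUrd effects on tRNA-Tyr-ATA differed between the enzymes by a fitted 3.86 ± 1.70 (SE, adjusted p = 0.119, edgeR), by 1.66 (adjusted p = 0.298) with both strands counted, and by 4.63 (adjusted p = 0.0160) without the first treated DUS2L library.

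The ATA isoacceptor made up a small share of tyrosine counts. It was 1.49% and 9.07% in treated DUS2L libraries, 0 and 0.556% in untreated DUS2L libraries, 4.004% and 3.93% in treated DUS1L libraries, and 1.39% and 1.35% in untreated DUS1L libraries. The treated DUS1L libraries lay above both untreated DUS1L libraries, although the interval of the second untreated one, 0.0342% to 7.30%, covers them.

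Along tRNA-Tyr-GTA, counts of both enzymes were spread from the D arm to the T arm with peaks at the same few positions. Positions 26 and 27, which in standard numbering lie where the D and anticodon arms meet, and position 37, which there follows the anticodon, held the highest shares with 5-ClUrd. Position 27 held 30.4% and 22.6% of the family's counts in treated DUS2L libraries, 36.1% and 50.8% in untreated DUS2L libraries, 6.31% and 8.08% in treated DUS1L libraries, and 29.7% and 16.4% in untreated DUS1L libraries. Treated DUS1L libraries were the lowest there, and their sites at this position on tRNA-Tyr-GTA-4-1, with 1055 and 928 counts, stood near those libraries' highest site counts of 1269 and 1061. Position 37 held 17.8% and 21.6% in treated DUS2L libraries, 24.3% and 15.6% in untreated DUS2L libraries, 7.09% and 11.7% in treated DUS1L libraries, and 20.6% and 42.5% in untreated DUS1L libraries. Treated DUS1L libraries were again the lowest, with 1073 and 1028 counts at the site on tRNA-Tyr-GTA-4-1.

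**Figure D2:**
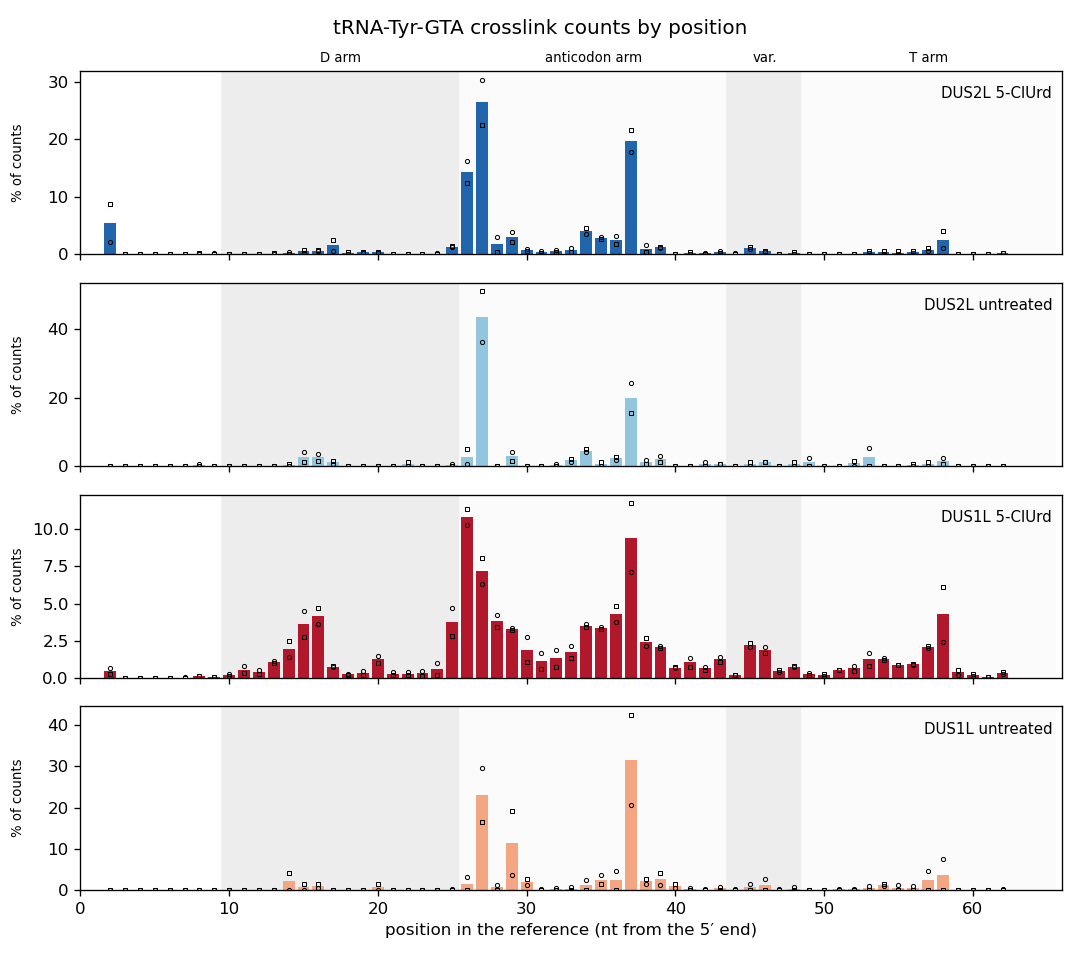
Percent of a library's tRNA-Tyr-GTA counts at each reference position, with bars for the mean of 2 libraries and circles and squares for the first and second, on a vertical scale of its own in each panel. Positions 27 and 37 stand out in all 4 groups, position 2 in treated DUS2L cells, and the D arm (positions 10 to 25) is filled mainly in treated DUS1L cells, where it held 22.4% and 17.8%.

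The D arm, set here as positions 10 to 25 and known to hold the target uridines, carried different shares with the 2 enzymes. It held 4.49% and 7.67% of tRNA-Tyr-GTA counts in treated DUS2L libraries, against 8.88% and 6.15% in untreated DUS2L libraries. They held 22.4% and 17.8% in treated DUS1L libraries, against 1.29% and 8.22% in untreated DUS1L libraries. Treated DUS1L libraries lay above all the others, and the DUS2L groups overlapped. The treated DUS2L mean was 14.0 percentage points below the treated DUS1L mean, and the treated DUS1L mean was 15.3 points above the untreated one. With 2 libraries against 2 the exact two-sided permutation test cannot go below p = 0.333, which it gave for both.

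The anticodon arm, set here as positions 26 to 43, mirrored this. It held 80.4% ± 11.3 of tRNA-Tyr-GTA counts in treated DUS2L cells and 82.9% ± 5.16 in untreated DUS2L cells, and 60.1% ± 1.34 in treated DUS1L cells and 83.2% ± 10.2 in untreated DUS1L cells (SD, n = 2 each). The T arm, positions 49 to 65, held 5.65% ± 3.56 in treated DUS2L cells and 6.98% ± 4.35 in untreated DUS2L cells, and 13.4% ± 2.18 in treated DUS1L cells and 9.37% ± 11.3 in untreated DUS1L cells. The first 9 positions held 5.88% ± 5.00 in treated DUS2L cells against 0.296% ± 0.418 without 5-ClUrd, and 0.816% ± 0.280 in treated DUS1L cells against 0.0391% ± 0.0553 without it.

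Single positions were tested among all family positions with at least 10 counts. In DUS2L cells 10 of 33 tyrosine positions rose with 5-ClUrd and 0 fell, where 15.5% of all 3582 positions rose and 23.8% fell (edgeR, adjusted p below 0.05; 13 tyrosine positions had an unadjusted p below 0.05). Of the 10, 4 (2, 28 and 30 of tRNA-Tyr-GTA and 16 of tRNA-Tyr-ATA) had 0 untreated counts, so they entered the test through the treated libraries and could only rise. They were positions 2, 25, 26, 27, 28, 30, 35 and 37 of tRNA-Tyr-GTA and positions 16 and 17 of tRNA-Tyr-ATA. Without the first or without the second untreated DUS2L library 0 of them passed (6 and 6 by unadjusted p), and without the second treated one 6 did.

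Position 26 had 312 and 200 counts in treated DUS2L cells, against 1 and 9 in untreated DUS2L cells. Its log2 change was 4.45 ± 0.91 (SE, edgeR), and its share of the family reached 16.3% and 12.5% with 5-ClUrd against 0.592% and 5.03% without it. Scaled to the family's own total, position 26 still rose, by 2.33 (adjusted p = 0.0329, edgeR). Position 27 had 583 and 362 counts with 5-ClUrd against 61 and 91 without it, a change of 1.36 ± 0.54 (adjusted p = 0.0329), and position 37 had 342 and 346 against 41 and 28, a change of 1.98 ± 0.66 (adjusted p = 0.0126). Scaled to the family total these differences were -0.71 and -0.02 and did not pass.

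Position 2 rose with both enzymes. It had 40 and 142 counts in treated DUS2L cells against 0 and 0 untreated, at least 24.97-fold higher when the untreated group is set at 3 counts over both libraries. It had 161 and 43 counts in treated DUS1L cells against 0 and 0 untreated, at least 7.54-fold higher by the same floor. All but 4 of these DUS1L counts, and all the DUS2L ones, came from tRNA-Tyr-GTA-8-1. Position 2 passed scaled to the family total as well, with an adjusted p of 0.00739 in DUS2L and 0.0283 in DUS1L (edgeR). With 0 untreated counts it entered these tests through the treated libraries and could only rise, so its calls are a description.

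In DUS1L cells 16 of 68 tested tyrosine positions rose with 5-ClUrd and 0 fell, where 26.8% of all 2132 positions rose and 1.5% fell (edgeR; 31 had an unadjusted p below 0.05). Of the 16, 9 (2, 10 to 12, 17, 18 and 21 to 23 of tRNA-Tyr-GTA) had 0 untreated counts and could only rise, so the count is a description. Of the 16, 14 lay in the D arm, where 16 positions of tRNA-Tyr-GTA and 6 of tRNA-Tyr-ATA were tested. These 14 were position 14 of tRNA-Tyr-ATA, and positions 10 to 13, 15, 17 to 23 and 25 of tRNA-Tyr-GTA. The other 2 of the 16 were positions 2 and 59 of tRNA-Tyr-GTA. Of the 9 with 0 untreated counts, all but position 2 lay in the D arm. The share called in each arm over all families was not worked out. Of the 18 tested anticodon arm positions of tRNA-Tyr-GTA 0 passed (edgeR; 7 had an unadjusted p below 0.05). Without the first untreated DUS1L library 2 passed (positions 26 and 36), without the second 24 (23 higher and 1 lower), and without the first treated one 10.

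Position 17 had 168 and 115 counts in treated DUS1L cells against 0 and 0 in untreated DUS1L cells, at least 10.5-fold higher by the floor of 3 counts. Position 11 had 186 and 44 counts against 0 and 0, at least 8.51-fold higher, and position 12 had 120 and 43 against 0 and 0, at least 6.03-fold higher. Position 13 had 270 and 142 counts against 1 and 0, a ratio of 45.7 (counting interval 8.16 to 1810). These positions, with 2 and 23, were the 6 of 59 tested that also passed scaled to the family total. All of them but position 13 had 0 untreated counts and could only rise. The share of all positions that passed on this scale was not worked out.

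Position 16 had 834 and 644 counts in treated DUS1L cells against 15 and 1 in untreated DUS1L cells and did not pass (log2 difference 3.30 ± 1.17, adjusted p = 0.0511, edgeR). Position 15 had 1048 and 378 counts against 3 and 1 and passed (4.80 ± 1.47, adjusted p = 0.0325). Position 20 had 351 and 141 counts against 1 and 1, a ratio of 27.3 (counting interval 7.52 to 226). In DUS2L cells positions 15, 16 and 20 had 6 and 12, 10 and 13, and 6 and 8 treated counts, against 7 and 2, 6 and 3, and 0 and 0 untreated, and none passed.

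The difference between the enzymes in the 5-ClUrd effect at single positions was not tested. Of the positions of tRNA-Tyr-GTA that rose, 2 (positions 2 and 25) were among both the 8 in DUS2L and the 15 in DUS1L. Only 30 positions of tRNA-Tyr-GTA were tested in DUS2L, against 59 in DUS1L, and those not tested in DUS2L could not be shared. The overlap over all families was not worked out, so this number is a description. Position 25 had 24 and 23 counts in treated DUS2L cells against 1 and 0 untreated, a ratio of 19.3 (counting interval 3.31 to 780). In DUS1L cells it had 1096 and 387 against 7 and 0 (4.60 ± 1.31, adjusted p = 0.0272, edgeR).

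**Figure D3:**
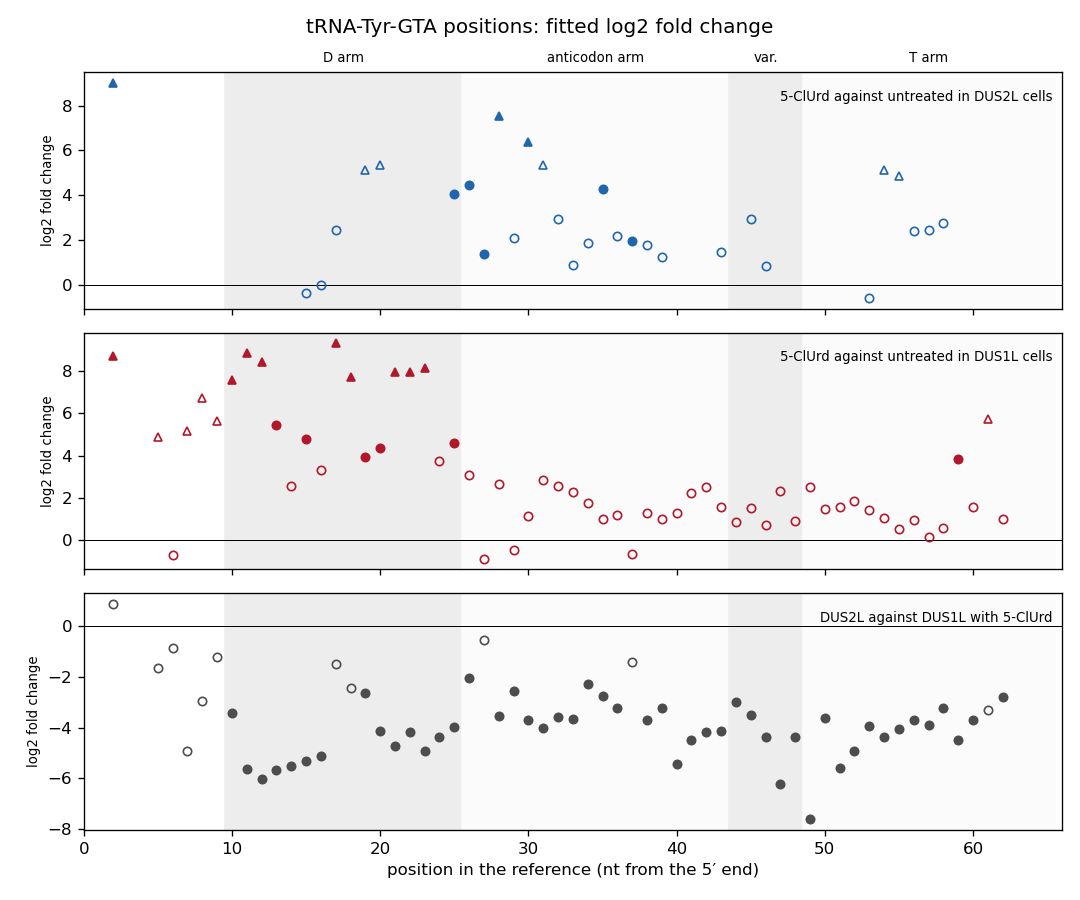
Fitted log2 fold change of each tested tRNA-Tyr-GTA position for 5-ClUrd against untreated in DUS2L (top) and DUS1L cells (middle) and for treated DUS2L against treated DUS1L (bottom), filled where the adjusted p (edgeR) is below 0.05. Triangles mark an untreated group with 0 counts, so that the height of a triangle is not a bound. Nor are the heights of positions 7 and 49 in the bottom panel, with 0 DUS2L counts. The filled points of DUS1L in the D arm are mostly triangles, which could only rise, and in the bottom panel 48 of 59 positions are lower with DUS2L, while position 2 lies above 0 without passing.

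With 5-ClUrd, 50 of 70 tyrosine positions were lower with DUS2L than with DUS1L and 0 were higher, where 19% of all 4424 positions were lower and 22.9% higher (edgeR). They were 48 positions of tRNA-Tyr-GTA and positions 14 and 58 of tRNA-Tyr-ATA. The number was 31 without the first treated DUS1L library, 16 with DESeq2 size factors in edgeR, of which 3 were higher, and 3 by DESeq2's Wald test. Positions 2, 27 and 37 of tRNA-Tyr-GTA did not pass, at 0.86 ± 0.89, -0.57 ± 0.68 and -1.40 ± 0.68. Position 49 of tRNA-Tyr-GTA, among those called lower, had 0 treated DUS2L counts and could only be lower.

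Scaled to the family total, 10 of 59 tested positions of tRNA-Tyr-GTA were lower with DUS2L and 1 was higher. The share of all positions called on this scale was not worked out, so the number is a description. The lower ones were positions 11 to 16 in the D arm and positions 40, 47, 49 and 51. Position 15 held 6 and 12 counts in treated DUS2L cells against 1048 and 378 in treated DUS1L cells, a difference of -2.79 on this scale (adjusted p = 0.0327, edgeR). Position 49 held 0 and 0 counts in treated DUS2L cells against 76 and 32 in treated DUS1L cells, at least 19.3-fold lower in share of all sense counts. With 0 treated DUS2L counts, position 49 passed the count minimum mainly through the treated DUS1L libraries and could only be lower. The position that was higher on the family scale was position 2, by 3.43 (adjusted p = 0.00557).

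The references differed among themselves in which positions they covered. tRNA-Tyr-GTA-4-1 held 83.2% ± 10.3 of the family's counts in treated DUS2L cells and 82.1% ± 3.98 in untreated DUS2L cells, and 73.5% ± 0.992 in treated DUS1L cells and 90.1% ± 2.38 in untreated DUS1L cells (SD, n = 2 each). Of its 32655 counts in the 8 libraries, 1.14% lay at positions 1 to 15. By contrast, all counts of tRNA-Tyr-GTA-2-1 (1321 counts), tRNA-Tyr-GTA-6-1 (711 counts) and the reference shared by the 5 tRNA-Tyr-GTA-5 genes (547 counts) lay at positions 1 to 15. All 382 counts of tRNA-Tyr-GTA-8-1 lay at position 2, and all 4 counts of tRNA-Tyr-GTA-3-1 at position 15. From position 16 on, tRNA-Tyr-GTA-4-1 held 81.0%, tRNA-Tyr-GTA-9-1 held 9.88% and tRNA-Tyr-GTA-7-1 held 9.13% of the counts. These genes are near-identical copies, so how reads were divided among them is uncertain.

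**Figure D4:**
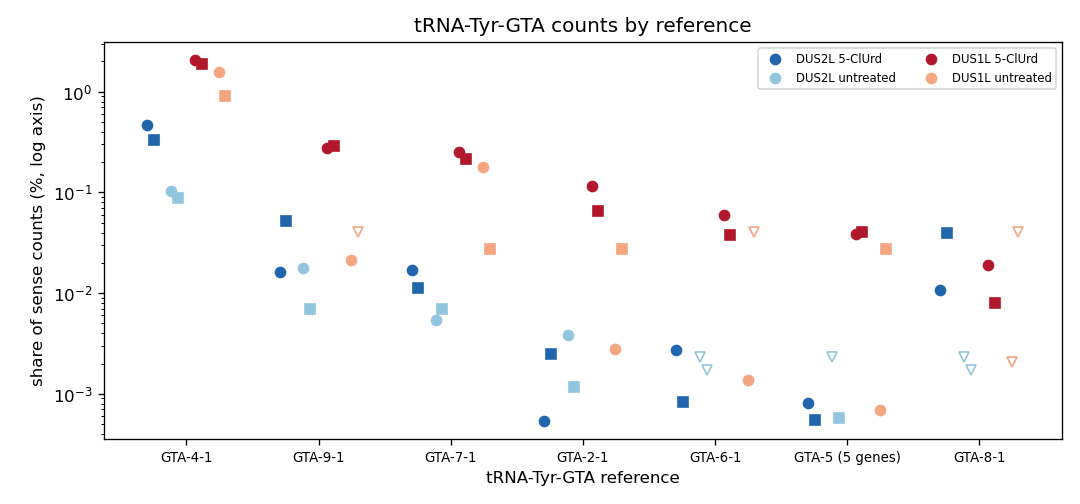
Share of each library's sense counts (%, log axis) on the 7 tRNA-Tyr-GTA references with at least 10 counts, with circles for the first and squares for the second library of a group and open triangles at the share of 3 counts where a library had 0. tRNA-Tyr-GTA-4-1 was highest in every library, and on tRNA-Tyr-GTA-8-1 every untreated library was at 0 while both treated groups had counts.

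In DUS2L cells 3 tyrosine references rose with 5-ClUrd and 0 fell, where 48.7% of 230 references rose and 12.2% fell (edgeR). They were tRNA-Tyr-ATA-1-1, tRNA-Tyr-GTA-4-1 and tRNA-Tyr-GTA-8-1, of which the last had 0 untreated counts and could only rise. tRNA-Tyr-GTA-4-1 had 1736 and 1218 counts with 5-ClUrd against 134 and 152 without it (2.07 ± 0.37, adjusted p = 3.45e-07). tRNA-Tyr-GTA-2-1 had 2 and 9 counts against 5 and 2, and its libraries overlapped.

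In DUS1L cells 5 tyrosine references rose and 0 fell, where 32.9% of 228 references rose and 4.82% fell, 37.7% in all (edgeR). tRNA-Tyr-ATA-1-1, with 91.5% of its treated DUS1L counts in the D arm, did not pass (2.33 ± 1.07, adjusted p = 0.0726). tRNA-Tyr-GTA-2-1 had 946 and 351 counts in treated DUS1L cells against 4 and 2 untreated (3.89 ± 1.34, adjusted p = 0.0159), and tRNA-Tyr-GTA-6-1 had 491 and 205 against 2 and 0, a ratio of 38.6 (counting interval 10.6 to 319). The tRNA-Tyr-GTA-5 reference had 316 and 222 counts against 1 and 2, a ratio of 19.9 (counting interval 6.77 to 96.8).

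The other two were tRNA-Tyr-GTA-8-1 and tRNA-Tyr-GTA-9-1. tRNA-Tyr-GTA-8-1 had 157 and 43 counts in treated DUS1L cells against 0 and 0 untreated, at least 7.40-fold higher, and could only rise. tRNA-Tyr-GTA-9-1, with its counts mainly at positions 16 and 26, had 2294 and 1553 against 31 and 0 (4.10 ± 1.12, adjusted p = 0.00352, edgeR). tRNA-Tyr-GTA-4-1, with 16882 and 10206 counts against 2260 and 67, did not pass (0.66 ± 0.58, adjusted p = 0.351), nor did tRNA-Tyr-GTA-7-1 (1.04 ± 0.93, adjusted p = 0.361). Without the first or the second treated DUS1L library 0 references passed (2 and 2 by unadjusted p, edgeR).

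With 5-ClUrd 7 of 8 tyrosine references were lower with DUS2L than with DUS1L and 0 were higher, where 34.4% of 244 references were lower and 29.9% higher, 64.3% in all (edgeR). The exception was tRNA-Tyr-GTA-8-1, with 40 and 142 counts in treated DUS2L cells against 157 and 43 in treated DUS1L cells (0.88 ± 0.82, adjusted p = 0.357).

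With 5-ClUrd the ATA isoacceptor was crosslinked mainly in the D arm. Positions 10 to 25 of tRNA-Tyr-ATA held 93.1% and 93.8% of its counts in treated DUS2L libraries (of 29 and 160 counts), and 90.2% and 93.8% in treated DUS1L libraries (of 967 and 563). In the first untreated DUS1L library they held 41.7% of 36 counts, with an interval of 25.5% to 59.2%, and the T arm held 50%. In the same treated libraries the D arm of tRNA-Tyr-GTA held between 4.49% and 22.4%. No interval of one isoacceptor reached that of the other. Single tRNA-Tyr-GTA references varied, however. In treated DUS1L cells the D arm held 99.4% of tRNA-Tyr-GTA-2-1, 100% of the tRNA-Tyr-GTA-5 reference, 90.4% of tRNA-Tyr-GTA-6-1 and 57.0% of tRNA-Tyr-GTA-9-1. It held 10.4% of tRNA-Tyr-GTA-4-1, 4.93% of tRNA-Tyr-GTA-7-1 and 0 of tRNA-Tyr-GTA-8-1. How reads were divided among these near-identical references is uncertain.

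Within that D arm the 2 enzymes had their maxima at different bases. Position 14 of tRNA-Tyr-ATA held 13.8% and 10.0% in treated DUS2L libraries against 43.7% and 60.9% in treated DUS1L libraries. Position 16 held 48.3% and 48.1% in treated DUS2L libraries against 35.8% and 25.04% in treated DUS1L libraries, and position 17 held 17.2% and 23.1% against 2.79% and 1.24%. The groups did not overlap at any of the 3 positions, which were those of highest mean share in treated DUS2L cells. How often 2 libraries against 2 do not overlap over all positions was not worked out. The DUS2L shares rest on 29 and 160 counts.

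As counts, position 14 had 4 and 16 in treated DUS2L cells against 423 and 343 in treated DUS1L cells, a log2 difference of -4.37 ± 1.02 (SE, adjusted p = 0.000104, edgeR). Positions 16 and 17 did not pass, at -1.44 ± 0.89 and 1.30 ± 1.00. With 5-ClUrd in DUS2L cells position 16 had 14 and 77 counts against 0 and 0 untreated, at least 12.5-fold higher, and position 17 had 5 and 37 against 0 and 1, a ratio of 17.3 (counting interval 2.94 to 699). In DUS1L cells position 14 had 423 and 343 counts against 8 and 0 untreated (3.55 ± 1.12, adjusted p = 0.0353, edgeR), and position 16 had 346 and 141 against 4 and 1 (3.12 ± 1.15, adjusted p = 0.0578).

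**Figure D5:**
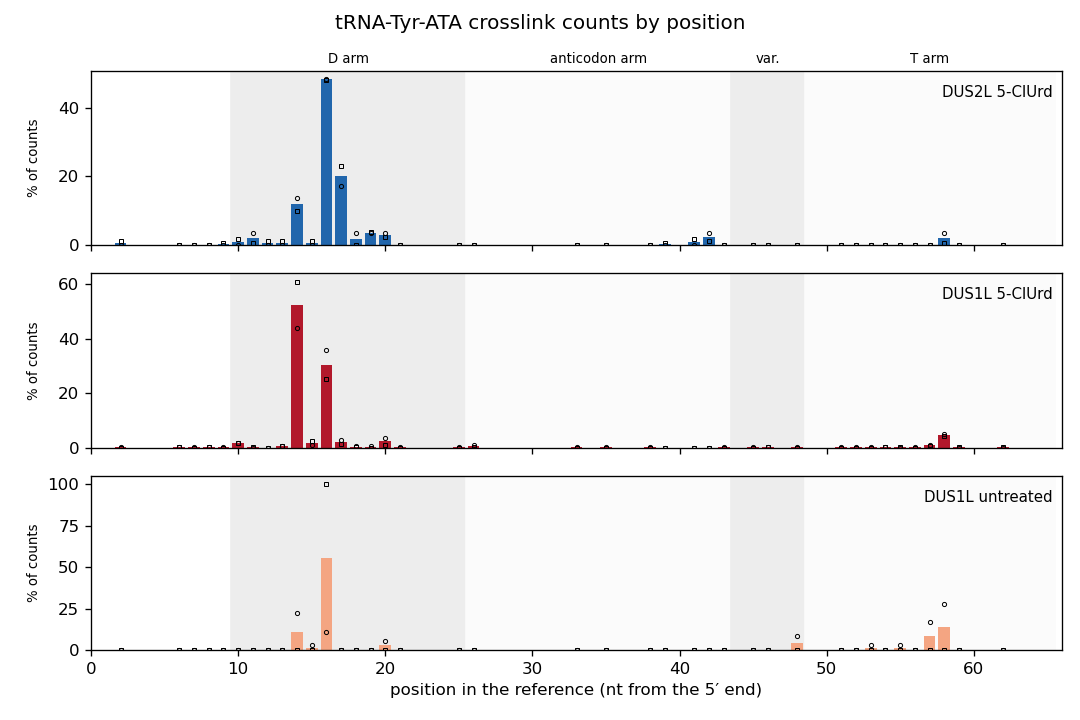
Percent of a library's tRNA-Tyr-ATA counts at each reference position, with bars for the mean of 2 libraries and circles and squares for the first and second, on a vertical scale of its own in each panel. The highest bar is at position 16 with DUS2L and at position 14 with DUS1L under 5-ClUrd, and the untreated DUS1L panel rests on 36 counts and 1 count, the single count being the point at 100%.

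The authors called peaks per library. A peak's score equals the summed count of its sites in 1680 of 1680 peaks. There were 30 tyrosine peaks: 7 and 3 in the treated DUS2L libraries, 0 and 0 in the untreated DUS2L libraries, 8 and 7 in the treated DUS1L libraries, and 4 and 1 in the untreated DUS1L libraries. On tRNA-Tyr-ATA-1-1 peaks covered positions 14 to 17 in both treated DUS2L libraries (scores 23 and 132) and positions 14 to 16 in both treated DUS1L libraries (scores 778 and 497). Peaks over positions 57 and 58 were also called in both treated DUS1L libraries (scores 60 and 27). The first untreated DUS1L library had peaks over positions 14 to 16 (score 13) and over 57 and 58 (score 16). On tRNA-Tyr-GTA-4-1 a peak over positions 26 and 27 was called in both treated DUS2L libraries (scores 842 and 470) and in the second treated DUS1L library (score 1781). Peaks on tRNA-Tyr-GTA-2-1 and on the tRNA-Tyr-GTA-5 reference were called in both treated DUS1L libraries and in no other.

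The families whose share over the 8 libraries was most like that of tRNA-Tyr-GTA, by Pearson's r of log2 share, were tRNA-Ile-AAT (r = 0.964), tRNA-Ile-TAT (r = 0.960) and tRNA-Ala-TGC (r = 0.947). The libraries share their group and depth, so this is a description. The r with tRNA-Tyr-ATA was 0.906.

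Of the 4 tRNAs that carry queuosine (tyrosine GTA, histidine GTG, asparagine GTT and aspartate GTC), 2 rose and 1 fell with 5-ClUrd in DUS2L cells, where 52.7% of all families rose and 23.6% fell (edgeR). Their median log2 change was 0.25 against 0.86 over all families. tRNA-Asn-GTT rose (0.88, adjusted p = 0.0106), tRNA-His-GTG fell (-0.57, adjusted p = 0.0386) and tRNA-Asp-GTC did not pass. In DUS1L cells 2 rose and 0 fell, where 22.6% and 1.89% of families did, with a median of 1.65 against 1.35. tRNA-Tyr-GTA differed from tRNA-His-GTG and tRNA-Asp-GTC in its level with each enzyme. Treated shares averaged 0.479% in DUS2L and 2.67% in DUS1L for tRNA-Tyr-GTA, 6.14% and 0.450% for tRNA-His-GTG, and 7.82% and 0.419% for tRNA-Asp-GTC. tRNA-Asn-GTT, at 2.94% and 4.83%, was lower with DUS2L, as tRNA-Tyr-GTA was. Its log2 difference of -0.71 did not pass (adjusted p = 0.0504, edgeR).

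Among the 4 tRNAs of aromatic amino acids (both tyrosine isoacceptors, phenylalanine GAA and tryptophan CCA), 3 rose and 0 fell with 5-ClUrd in DUS2L cells, against 52.7% and 23.6% of all families, with a median of 1.42 against 0.86. In DUS1L cells 0 passed, against 22.6% of families that rose and 1.89% that fell, with a median of -0.15 against 1.35 (edgeR; 1 of the 4, tRNA-Tyr-ATA, had an unadjusted p below 0.05). With 5-ClUrd 3 of the 4 were lower with DUS2L than with DUS1L, where 27.3% of families were, with a median of -2.28 against 0.49. The 3 were tRNA-Phe-GAA and both tyrosine families, and tRNA-Trp-CCA did not pass (-0.18, adjusted p = 0.778, edgeR). Both tyrosine families, reported above, are counted again here and in the next list, so the numbers of both lists are descriptions. Of the 5 families with intron-containing genes (both tyrosine isoacceptors, isoleucine TAT, leucine CAA and arginine TCT), 4 were lower and 1, tRNA-Leu-CAA, was higher with DUS2L under 5-ClUrd, where 27.3% of families were lower and 38.2% higher, with a median of -2.09 against 0.49. In DUS2L cells 3 of these 5 rose with 5-ClUrd and 2, tRNA-Leu-CAA and tRNA-Arg-TCT, fell, against 52.7% and 23.6% of all families, and in DUS1L cells 0 passed (edgeR; 1 had an unadjusted p below 0.05).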

How the data were processed

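Sites of crosslinking in 8 iCLIP libraries were deposited by the authors as raw counts per single base on tRNA and rRNA references, with peaks per library whose scores are sums of those counts. Reads were aligned with STAR 2.7.0f against hg38, per the submitters' processing notes; the calling of sites and peaks, and any collapse of molecular identifiers, is not given in the sources used here. Sense counts were summed by family, reference and position. Tests used edgeR 4.0.16 and its quasi-likelihood F test on features whose counts summed to 10 or more in the fit (library size the total sense count, Benjamini-Hochberg adjustment over all features of a level, threshold 0.05; R 4.3.3). Within an enzyme 4 libraries were fitted, between enzymes all 8. The tests were also run on simulated counts with known changes and the same spread for every feature. That run does not show the error rate of the tests in these libraries. Positions were also fitted against the family's total ("scaled to the family total"). Arms were set by reference position, and shares were compared by exact permutation over libraries. Intervals on ratios of counts are exact and cover counting error only.

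Alternatives were TMM and DESeq2 1.42.0 size factors, DESeq2's Wald test, other count minimums, both strands, tRNA alone, a limit of 500 counts per site, a replicate block and each library left out. The named positions were the 8 highest by mean share in each group and up to 6 largest called changes. The members and lists were chosen with earlier results of these data known. Antisense counts (0.298% to 1.27% of a library) were left out.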

Additional observations from a re-analysis of the deposited data

How the results depend on the processing

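tRNA-Tyr-GTA kept its direction and call under every alternative run for DUS2L with 5-ClUrd (log2 1.28 to 2.23) and between enzymes with 5-ClUrd (-3.25 to -2.28) and without it (-4.68 to -3.07). Other results moved with scaling, with a library left out or with other alternatives, as given below. What caused these changes was not tested. Untreated tRNA-Tyr-ATA rests on 1 DUS2L and 37 DUS1L counts, and the second untreated DUS1L library holds 7369 counts. With 1 library left in a group, its spread is assumed like that of the others.

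The tRNA-Tyr-GTA difference with 5-ClUrd in DUS1L was -0.11 with TMM, -0.37 with DESeq2 size factors and -0.37 by DESeq2's Wald test, and 0.59 to 1.43 with a library left out. For tRNA-Tyr-ATA in DUS1L the replicate block gave 2.43 (adjusted p = 0.0411), TMM 1.25, DESeq2 size factors 0.97, DESeq2's Wald test 1.04, sites above 500 counts left out 1.49 (adjusted p = 0.153) and leaving out a library 2.15 to 3.02. In DUS2L, tRNA-Tyr-ATA gave 5.42 (adjusted p = 0.0540) with DESeq2 size factors, 3.94 (0.0559) with both strands and 4.35 to 9.23 with a library left out. Its enzyme difference with 5-ClUrd was -2.52 (0.0527) with TMM, -1.88 (0.0510) without sites above 500 counts and -3.81 to -1.33 with a library left out. Without 5-ClUrd it was -3.74 with both strands and -9.25 to -5.18 with a library left out. The difference of the 5-ClUrd effects was 0.60 to 1.44 for tRNA-Tyr-GTA and 2.15 to 7.16 for tRNA-Tyr-ATA with a library left out (edgeR). With the other alternatives it was 0.19 (TMM) to 1.43 for tRNA-Tyr-GTA and 1.66 (both strands) to 4.68 for tRNA-Tyr-ATA.

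Tyrosine positions called in DUS1L were 16, and 10 with TMM, 9 with DESeq2 size factors, 7 by DESeq2, 6 scaled to the family total and 2 to 24 with a library left out. In DUS2L they were 10, and 17 with TMM, 6 with a minimum of 1 count, 6 with 50, 6 with the replicate block, 2 scaled to the family total and 0 to 7 with a library left out (edgeR; 6 by unadjusted p in each fit with 0). Between enzymes they were 50, and 16 with DESeq2 size factors (3 higher, 13 lower), 3 by DESeq2 (1 higher, 2 lower), 11 scaled to the family total (1 higher, 10 lower) and 31 to 45 with a library left out. Scaled to the family total, 4 called values turned: positions 27 (-0.71) and 37 (-0.017) of tRNA-Tyr-GTA in DUS2L, and 26 (0.41) and 34 (0.22) between enzymes. Tyrosine references called in DUS1L were 5, and 3 with TMM, 3 with DESeq2 size factors, 2 by DESeq2, 3 with the replicate block and 0 to 6 with a library left out.

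Region shares with a library left out ran from -3.94 to 12.1 points for the T arm in DUS1L. In DUS2L they ran from -3.02 to 0.158 (D arm), -10.6 to 5.48 (anticodon arm), -1.36 to 0.810 (variable loop) and -4.41 to 1.74 (T arm).

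Groups share replicate numbers, but with 2 pairs per comparison the numbers do not establish a pairing (correlation of same-numbered deviations 0.212 in DUS2L and 0.103 in DUS1L, and -0.361 across enzymes with 5-ClUrd). With the replicate block tRNA-Tyr-GTA in DUS1L was at 1.005 (adjusted p = 0.382). The crossed block, chosen after seeing the data, called 21 higher and 15 lower families across enzymes, against 21 and 15 without a block. Scaling moved the median family by -1.03 (TMM) and -1.25 (DESeq2) in DUS1L and by -0.65 and -0.75 in DUS2L, and between enzymes by -0.43 and 0.18 with 5-ClUrd and by 0.42 and 0.47 without it.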
